A study of Nannochloropsis oceanica with 6 samples.

Results

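The genes described here belong to calcium, cyclic nucleotide and phosphoinositide signalling in the eustigmatophyte alga Nannochloropsis oceanica, strain IMET1, a single-celled marine species that stores oil. They were taken from the Swiss-Prot descriptions in the deposited gene tables by words such as calmodulin, calcium-dependent, calcineurin, adenylate cyclase, cAMP, cGMP, phosphatidylinositol and inositol phosphate. Ion-transporting ATPases, cyclins and carriers were left out. This gave 87 of 10633 genes, of which 5984 carried a description. The words also took in 3 genes described as hippocampus abundant transcripts, which hold the letters of cAMP and are not known parts of these pathways. They are kept in the counts and named where they matter.

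The low CO2 group was 3 column reactors of IMET1 aerated with 0.04% CO2, and the high CO2 group, the control, was 3 reactors kept on air with 5% CO2. All 6 started from the same seed cells and shared 1 h at 5% CO2, light of 80 µmol photons m-2 s-1, 25 °C and a Tris buffer of pH 8.2. They were sampled 24 h after the switch, so earlier responses were not observed. Poly(A) RNA was sequenced, and the libraries held 4620234 to 6112822 estimated counts, of which the signalling genes made up 0.62% to 0.81%. In every library the gene with the most counts was NO25G00860, described as a fucoxanthin-chlorophyll a-c binding protein of the light-harvesting antenna. Reads are shares of a library, so less RNA of a gene in each cell and fewer cells that make it cannot be told apart. Low CO2 replicate 1 and high CO2 replicate 3 were each unlike the other libraries of their own group, and values without low CO2 replicate 1 are given beside the genes whose call changed.

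In these pathways a stimulus is passed on by small diffusible molecules. Calcium ions bind calmodulin and related proteins with EF-hand motifs, which switch on kinases and the phosphatase calcineurin. Adenylate cyclase makes cAMP, which binds regulatory domains of protein kinases and channels, and phosphodiesterases break it down. Phosphatidylinositol is phosphorylated by lipid kinases at several positions of its inositol ring, phosphatases remove these groups, and its water-soluble head groups are themselves phosphorylated and recycled. Names such as calmodulin-dependent protein kinase type II come from the closest Swiss-Prot match, mostly in animals, plants or yeast, and the function of these genes in the alga is not given by the tables.

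The question of the comparison was how transcript levels after a day at 0.04% CO2 compared with those in cells left at 5% CO2. Of the 87 genes, 79 passed the filter on low counts, and 3 of these rose and 0 fell in low CO2 (quasi-likelihood test of edgeR, with p adjusted by Benjamini-Hochberg over all 9244 genes tested and a threshold of 0.05). Over all genes tested, 2.12% were called, 1.22% as higher and 0.898% as lower in low CO2, beside 3.8% of the 79, which is 3 genes. At an unadjusted p below 0.05 there were 21 of the 79 and 1720 of all genes tested. The 3 are a phosphatidylinositol:ceramide inositolphosphotransferase, a calcium/calmodulin-dependent protein kinase type 1 and a calcium/calmodulin-dependent protein kinase type II subunit alpha.

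NO21G00230 is described as phosphatidylinositol:ceramide inositolphosphotransferase 3, the enzyme that moves the phosphoinositol head group from phosphatidylinositol to ceramide and so makes inositol phosphorylceramide, a sphingolipid, and diacylglycerol. It stood at 432, 320 and 316 FPKM (fragments per kilobase of transcript, scaled to library size) in low CO2 replicates 1, 2 and 3, and at 65.3, 60.7 and 71.5 FPKM in high CO2 replicates 1, 2 and 3. Every low CO2 library was above every high CO2 library by a wide gap, and low CO2 replicate 1 was the highest. The gene averaged 356 ± 66.0 FPKM in low CO2 and 65.8 ± 5.39 FPKM in high CO2 (SD, n = 3 each). It rose 5.25-fold, a log2 fold change of 2.39 (SE 0.20, 95% interval 1.92 to 2.87, adjusted p = 0.00254 in edgeR), the largest change among the 79. The call held under the 15 alternatives run, with log2 fold changes of 2.15 to 2.50.

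NO06G02770 is described as calcium/calmodulin-dependent protein kinase type 1, a kinase that in animals is active when calcium-bound calmodulin holds it. It stood at 47.4, 47.5 and 45.9 FPKM in the low CO2 libraries, against 14.8, 14.9 and 13.8 FPKM in the high CO2 libraries. The replicates lay close together and the groups far apart, with means of 46.9 ± 0.871 FPKM in low CO2 and 14.5 ± 0.585 FPKM in high CO2 (SD, n = 3 each). It rose 3.09-fold, a log2 fold change of 1.63 (SE 0.12, 95% interval 1.34 to 1.92, adjusted p = 0.00135 in edgeR). The call held under the 15 alternatives run, with log2 fold changes of 1.55 to 1.69.

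NO15G00050 is described as calcium/calmodulin-dependent protein kinase type II subunit alpha, and its KEGG name in the tables is CPK, that of the plant-type calcium-dependent kinases. Over all 6 libraries it had the highest mean FPKM of its class of kinases. In high CO2 alone, NO18G01160 (148 FPKM) and NO15G02200 (130 FPKM) averaged more. NO15G00050 stood at 208, 186 and 206 FPKM in the low CO2 libraries and 93.6, 104 and 96.8 FPKM in the high CO2 libraries. The groups did not overlap, and the spread within each was small beside the gap between them. It rose 1.98-fold, a log2 fold change of 0.98 (SE 0.13, 95% interval 0.69 to 1.28, adjusted p = 0.0142 in edgeR). The fold change varied little when libraries were left out (0.89 to 1.07), but the call was lost without low CO2 replicate 3 (adjusted p = 0.0712) or high CO2 replicates 1, 2 or 3 (0.0903, 0.102 and 0.0563).

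The authors' deposited table of 217 genes lists the transferase with a log2 fold change of 2.40 (adjusted p = 2.01e-22) and the type 1 kinase with 1.64 (adjusted p = 1.42e-21), and no other of the 87 genes. With the further pathway genes below included, the lowest log2 fold change it gave was 1.08. The type II kinase, which it leaves out, had 0.98 in edgeR here. Whether that table was cut at a 2-fold change was not tested. The genes at the neighbouring locus numbers of the 3 called genes did not pass the test, with log2 fold changes of 0.03 to 0.48 and adjusted p of 0.192 to 0.946 in edgeR.

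**Figure D1:**
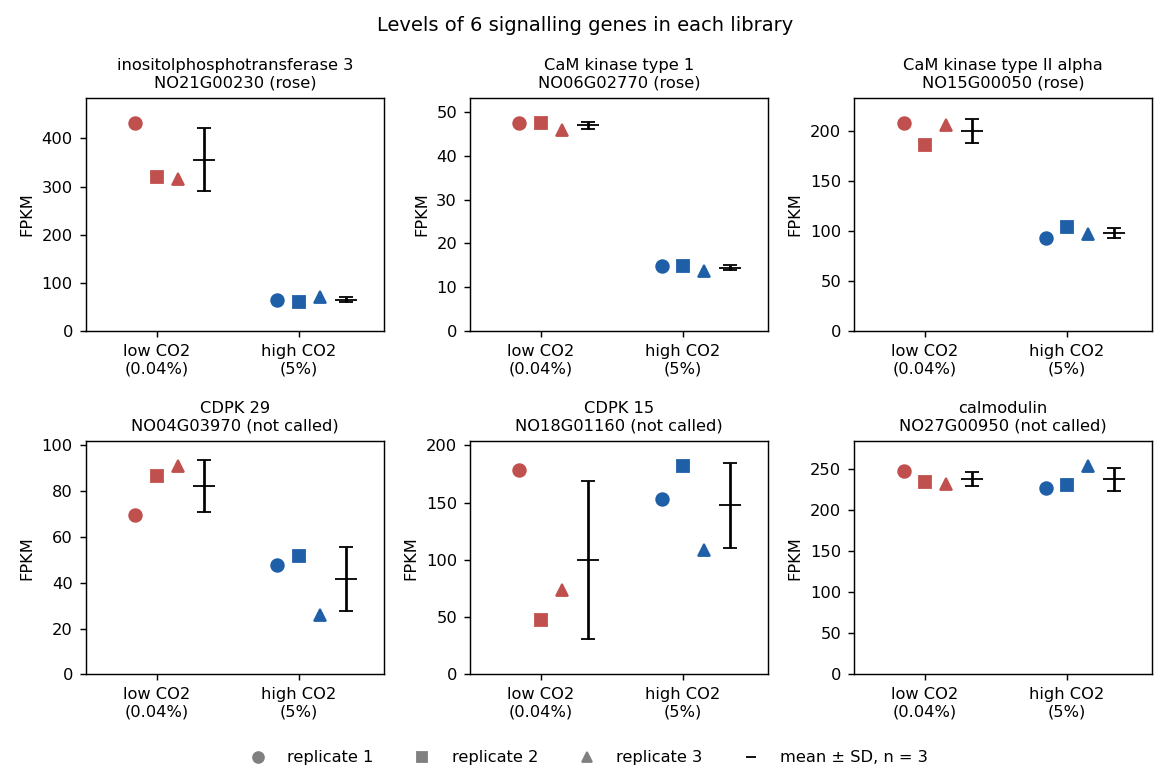
FPKM (y axis, from 0) of 6 signalling genes in each library, with the 3 low CO2 libraries left of the 3 high CO2 libraries, a symbol per replicate, and the mean ± SD (n = 3) beside them. The groups are far apart for the 3 genes that rose. For calcium-dependent protein kinase 29, which was not called, they do not overlap, and high CO2 replicate 3 is well under the other libraries. Low CO2 replicate 1 lies among the high CO2 libraries for calcium-dependent protein kinase 15, and calmodulin is level.

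The calcium-binding proteins were 4 genes, and none passed. NO27G00950 was the gene described as calmodulin itself, the small calcium sensor that the calmodulin-dependent kinases depend on. It stood at 248, 234 and 231 FPKM in low CO2 and at 227, 231 and 253 FPKM in high CO2, so the groups overlapped. Its log2 fold change was -0.06 (95% interval -0.36 to 0.24, adjusted p = 0.826 in edgeR). NO08G04070, described as the calmodulin-like protein CML27, averaged 38.6 ± 3.47 FPKM in low CO2 and 45.1 ± 3.57 FPKM in high CO2 (adjusted p = 0.387 in edgeR).

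A pair of genes shared the description of the uncharacterized Arabidopsis calcium-binding protein At1g02270 and lay on opposite sides of 0. NO20G02160 was at 50.05, 54.05 and 53.2 FPKM in low CO2 and 65.3, 66.1 and 73.9 FPKM in high CO2, with a log2 fold change of -0.45 (95% interval -0.73 to -0.17, adjusted p = 0.117 in edgeR). NO02G00020 was at 23.6, 27.1 and 26.3 FPKM in low CO2 and 18.1, 16.6 and 14.2 FPKM in high CO2, with a log2 fold change of 0.59 (95% interval 0.24 to 0.94, adjusted p = 0.105 in edgeR). Neither gene's libraries overlapped between groups, and neither passed the adjusted threshold. Both passed without low CO2 replicate 1, NO20G02160 as lower (adjusted p = 0.0326) and NO02G00020 as higher (0.0455). Calcineurin subunit A (NO29G00520), the catalytic part of the calcium-activated phosphatase, was at 4.90, 2.66 and 1.89 FPKM in low CO2 and 2.45, 2.68 and 2.57 FPKM in high CO2 (log2 fold change 0.25, adjusted p = 0.754 in edgeR). Only low CO2 replicate 1 was above the high CO2 libraries, and without it the log2 fold change was -0.31 (adjusted p = 0.354).

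Calcium-dependent and calmodulin-dependent kinases were the largest class of protein kinases among the signalling genes, with 15 members, all tested. Both kinases named above rose, none fell and 13 did not pass. Log2 fold changes ran from -0.58 to 1.63 with a median of 0.12, against a median of 0.01 over all genes tested. In FPKM, every low CO2 library was above every high CO2 library in 5 of the 15, and in 0 the reverse held. Over all genes tested these shares were 13.6% and 11.8%. The sides were less uneven in CPM (counts scaled to library size). There every low CO2 library was under every high CO2 library for NO15G02200, NO11G01760 and NO13G01790. NO22G01280, among the 5 in FPKM, overlapped in CPM. Over all 6 libraries the lowest mean was that of NO13G01790, with 5.48 ± 0.582 FPKM in low CO2 and 5.97 ± 0.145 FPKM in high CO2. The highest was that of NO15G00050, with 200 ± 12.1 and 98.1 ± 5.17 FPKM (SD, n = 3 each). Summed over the 15 genes, the kinases stood at 890, 834 and 870 FPKM in low CO2 and 768, 810 and 606 FPKM in high CO2, where high CO2 replicate 3 was the lowest. These sums include the genes that rose, NO15G00050 and NO06G02770 (means of 46.9 FPKM in low CO2 and 14.5 FPKM in high CO2). They do not show a rise of the other 13.

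Calcium-dependent protein kinase 29 (NO04G03970), a kinase of the type found in plants and protists that carries its own calcium-binding domain, was at 69.4, 86.8 and 90.9 FPKM in low CO2 and 47.7, 51.7 and 25.9 FPKM in high CO2. The groups did not overlap, with high CO2 replicate 3 well under the others. Its log2 fold change of 0.91 (SE 0.23, 95% interval 0.37 to 1.46) missed the threshold (adjusted p = 0.105 in edgeR). It passed without low CO2 replicate 1 (adjusted p = 0.0371) and in DESeq2's Wald test (adjusted p = 0.0113).

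Calcium-dependent protein kinase 15 (NO18G01160) turned on a single library. It was at 178, 47.5 and 73.9 FPKM in low CO2 and at 154, 182 and 108 FPKM in high CO2. Low CO2 replicates 2 and 3 were under every high CO2 library, and low CO2 replicate 1 lay among them. The log2 fold change was -0.58 (SE 0.50, adjusted p = 0.564 in edgeR) with all libraries and -1.41 (adjusted p = 0.0126) without low CO2 replicate 1. Without high CO2 replicate 3 as well it was -1.57 and not called (adjusted p = 0.0701). A gene described as calcium-dependent protein kinase 2 (NO01G03580) was at 24.1, 7.22 and 7.38 FPKM in low CO2 and 10.4, 11.7 and 13.4 FPKM in high CO2. Low CO2 replicate 1 was there above all others and the other two low CO2 libraries under all others. Without low CO2 replicate 1 the log2 fold change was -0.83 (adjusted p = 0.0276 in edgeR), against 0.09 (adjusted p = 0.935) with it.

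None of the remaining kinases passed. The highest of them was NO15G02200, a further type II kinase, at 116, 119 and 102 FPKM in low CO2 and 147, 143 and 100.4 FPKM in high CO2 (log2 fold change -0.35, 95% interval -0.67 to -0.03, adjusted p = 0.234 in edgeR, and 0.0328 without low CO2 replicate 1). The type IV kinase NO11G01760 was at 34.5, 47.01 and 46.1 FPKM in low CO2 and 60.9, 57.7 and 44.9 FPKM in high CO2 (log2 fold change -0.43, adjusted p = 0.166). In both, high CO2 replicate 3 was the lowest high CO2 library and in FPKM lay at the level of the low CO2 libraries. In CPM it was above all of them. NO15G02200 was at 198.5 CPM there, against 192.7, 166.6 and 145.4 CPM in low CO2. NO11G01760 was at 165.3 CPM there, against 127.3, 151.8 and 149.3 CPM in low CO2. NO13G01800, named after a plant kinase that binds both calcium and calmodulin, was at 57.96, 119.7 and 112 FPKM in low CO2 and 86.5, 84.7 and 67.2 FPKM in high CO2, so that low CO2 replicate 1 was the lowest of all 6 and the other two low CO2 libraries the highest (log2 fold change 0.19, adjusted p = 0.668). The type 1 kinase NO14G01690 was at 15.3, 17.7 and 19.7 FPKM in low CO2 and 12.3, 13.7 and 9.91 FPKM in high CO2, with no overlap (log2 fold change 0.49, 95% interval 0.10 to 0.88, adjusted p = 0.186). Another type 1 gene, NO10G00610, ran from 16.8 to 46.5 FPKM in low CO2 and from 18.4 to 34.1 FPKM in high CO2 and had a wide interval, -1.01 to 1.24.

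**Figure D2:**
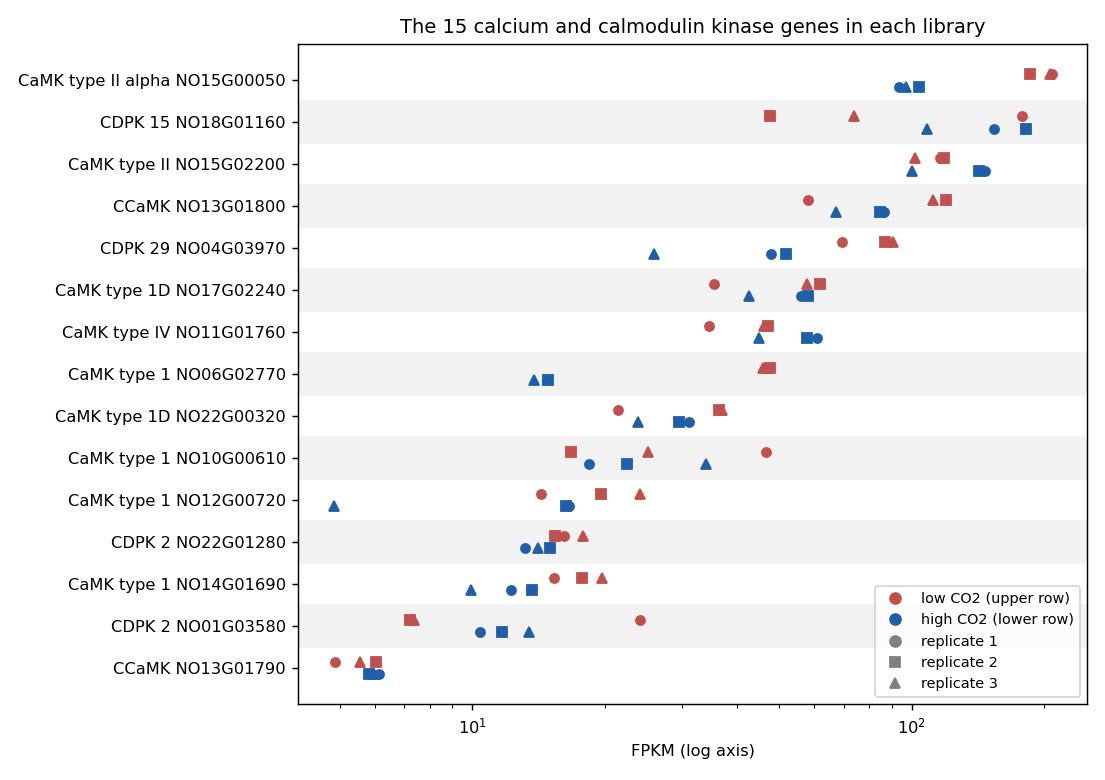
FPKM (x axis, log scale) of the 15 calcium-dependent and calmodulin-dependent kinase genes, ordered by mean level, with low CO2 libraries in the upper row and high CO2 libraries in the lower row of each gene and a symbol per replicate. Low and high CO2 libraries separate clearly for NO15G00050 and NO06G02770, and the low CO2 replicate 1 circle is far from the other two low CO2 libraries for NO18G01160 and NO01G03580.

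Of the genes that make, sense or break down cyclic nucleotides, none passed. Adenylate cyclase was described for 2 genes, both low: NO27G01320 was at 2.53, 3.56 and 2.57 FPKM in low CO2 and 2.82, 5.24 and 7.04 FPKM in high CO2 (log2 fold change -0.53, 95% interval -1.41 to 0.36, adjusted p = 0.48 in edgeR). NO18G02080 was at 0, 0.37 and 0.40 FPKM in low CO2 and 0.95, 0.28 and 0.36 FPKM in high CO2, and was too low to be tested. The single gene described as a cyclic nucleotide-gated channel (NO03G04740), an ion channel type first known from animal sensory cells, was also not tested, at 0.08 to 0.24 FPKM in low CO2 and 0.30 to 0.36 FPKM in high CO2. The single cGMP phosphodiesterase (NO01G01900) was listed at 0 in all 6 libraries.

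Kinases with a cyclic nucleotide-binding or cyclic nucleotide-dependent description were 6 genes, of which 5 were tested and none passed. The most abundant were NO30G00690, a protein phosphatase 2C with a cyclic nucleotide-binding and kinase domain, and NO07G00550, the catalytic subunit gamma of the cAMP-dependent protein kinase. NO30G00690 was at 37.96, 52.5 and 53.1 FPKM in low CO2 and 53.1, 58.5 and 44.2 FPKM in high CO2 (log2 fold change -0.20, adjusted p = 0.486 in edgeR). NO07G00550, whose KEGG names in the tables are those of other kinases (AURKX and PRKAA), was at 58.2, 54.8 and 50.7 FPKM in low CO2 and 44.5, 46.6 and 39.3 FPKM in high CO2 (log2 fold change 0.27, 95% interval -0.05 to 0.59, adjusted p = 0.331). The groups of NO07G00550 did not overlap, and those of NO30G00690 did. The cGMP-dependent protein kinase 1 (NO10G01760) was at 7.44, 7.93 and 4.22 FPKM in low CO2 and 4.08, 2.14 and 4.03 FPKM in high CO2 (log2 fold change 0.87, 95% interval -0.01 to 1.74, adjusted p = 0.27). The gene described as the regulatory subunit of the cAMP-dependent kinase (NO14G01480), which holds the catalytic subunit inactive until cAMP binds, was at most 0.21 FPKM in any library and was not tested.

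Of 14 genes described as phosphatidylinositol kinases, 13 were tested and none passed. Of the 13, 9 had a positive and 4 a negative log2 fold change, from -0.40 to 1.48 with a median of 0.12. The highest level among them was that of the gene described as phosphatidylinositol 4-kinase gamma 4 (NO14G00910), with 223, 216 and 190 FPKM in low CO2 and 340, 379 and 380 FPKM in high CO2. In FPKM the groups lay well apart, and limma on log2(FPKM + 1) called it as lower in low CO2 (log2 fold change -0.80, adjusted p = 0.0223), where 1.89% of all genes were called and 0.755% as lower. In counts the gap was narrower, at 408 ± 37.5 CPM (counts scaled to library size) in low CO2 and 537 ± 68.4 CPM in high CO2 (SD, n = 3 each), a log2 fold change of -0.40 (95% interval -0.72 to -0.08, adjusted p = 0.18 in edgeR). The tables list 14 transcripts for this gene, and its effective length, by which FPKM is divided, was 1544, 2043 and 2486 bases in low CO2 and 1637, 1548 and 1140 bases in high CO2. It was the only 1 of the 79 genes whose log2 ratio of mean FPKM differed from the count-based log2 fold change by more than 0.3, against 0.834% of all genes for which both could be had.

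**Figure D3:**
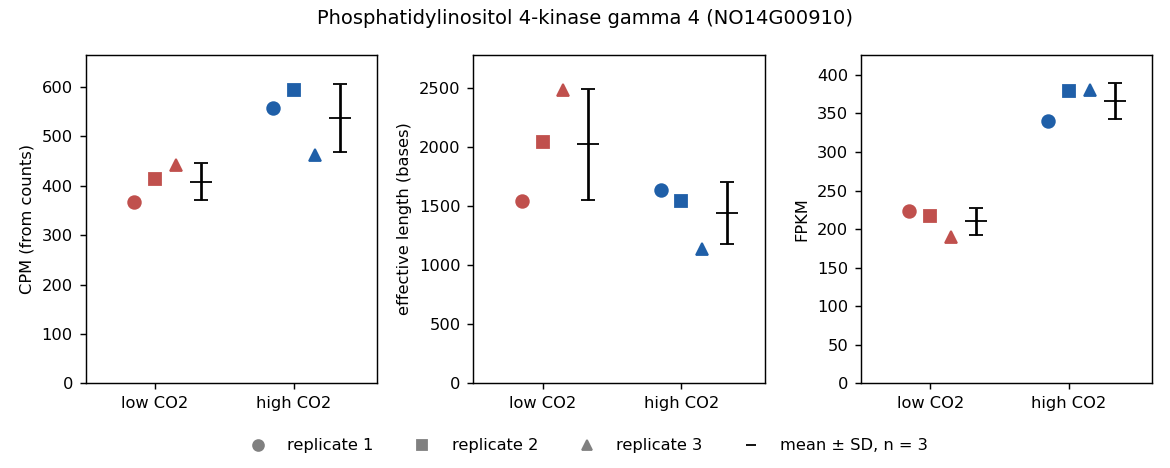
CPM, effective length in bases and FPKM (y axes, each from 0) of phosphatidylinositol 4-kinase gamma 4 in each library, low CO2 left of high CO2, with a symbol per replicate and the mean ± SD (n = 3). The gap between groups is wider in FPKM than in CPM, and the effective length of low CO2 replicates 2 and 3 is above that of every high CO2 library.

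Phosphatidylinositol 4-kinase gamma 3 (NO21G00920) was the next most abundant, at 146, 129 and 132 FPKM in low CO2 and 124, 125 and 122 FPKM in high CO2. Its groups did not overlap, but its log2 fold change was only 0.12 (95% interval -0.14 to 0.39, adjusted p = 0.591 in edgeR). The largest value of the class belonged to phosphatidylinositol 5-phosphate 4-kinase type-2 gamma (NO06G03860), at 7.30, 9.45 and 14.8 FPKM in low CO2 and 5.15, 4.90 and 0.82 FPKM in high CO2. High CO2 replicate 3 was far under the other high CO2 libraries, and the log2 fold change of 1.48 had a wide interval, 0.15 to 2.82 (adjusted p = 0.229 in edgeR). It was 1.03 (adjusted p = 0.231) without high CO2 replicate 3, and 1.18 (adjusted p = 0.000428) without low CO2 replicate 1 as well. The type 3 catalytic subunit of phosphatidylinositol 3-kinase, the Vps34 kinase of membrane trafficking and autophagy, was described for 3 genes. NO08G00770, a model of 297 bases next to NO08G00780, held at most 3 counts in any library and was not tested. NO11G01400 averaged 27.5 ± 5.97 FPKM in low CO2 and 23.95 ± 4.08 FPKM in high CO2, and NO08G00780 averaged 1.74 ± 0.494 and 1.13 ± 0.133 FPKM (SD, n = 3 each; adjusted p = 0.724 and 0.405 in edgeR).

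The other genes described as phosphatidylinositol kinases filled the space between. The beta 1 form of phosphatidylinositol 4-kinase (NO08G03150), a Golgi enzyme in yeast and animals, averaged 59.7 ± 4.57 FPKM in low CO2 and 55.9 ± 2.77 FPKM in high CO2, a log2 fold change of 0.02 with a narrow interval, -0.23 to 0.28. Phosphatidylinositol 4-phosphate 5-kinase, which makes the bisphosphate that phospholipase C cleaves, was described for NO02G02440 and NO01G03120. They averaged 28.4 ± 1.67 and 20.4 ± 2.90 FPKM in low CO2, against 31.3 ± 2.70 and 20.3 ± 4.14 FPKM in high CO2 (adjusted p = 0.444 and 0.919 in edgeR). FAB1A (NO04G05200), whose plant and yeast relatives make the 3,5-bisphosphate of vacuoles and endosomes, was at 15.02, 30.1 and 30.4 FPKM in low CO2 and 27.7, 22.2 and 15.7 FPKM in high CO2. Low CO2 replicate 1 was the lowest of the low CO2 libraries and high CO2 replicate 3 the lowest of the high CO2 libraries, and the groups overlapped (log2 fold change 0.32, adjusted p = 0.551). A short gene model described as phosphatidylinositol 4-kinase (NO12G02560, 762 bases) was at 17.5, 45.9 and 30.5 FPKM in low CO2 and 18.9, 19.1 and 12.8 FPKM in high CO2 (log2 fold change 0.81, adjusted p = 0.266, and 0.043 without low CO2 replicate 1).

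None of the 8 tested of 9 phosphoinositide phosphatases passed. These enzymes remove phosphates from the inositol ring and so end or redirect the signal. OCRL-1 (NO01G02720), named after a human 5-phosphatase of the trans-Golgi and endosomes, was the most abundant, at 90.5, 106 and 108 FPKM in low CO2 and 85.7, 88.1 and 86.8 FPKM in high CO2. Its log2 fold change was 0.15 (95% interval -0.07 to 0.38, adjusted p = 0.422 in edgeR). Type I inositol polyphosphate 5-phosphatase 12 (NO05G00080) was at 54.5, 32.9 and 41.9 FPKM in low CO2 and 49.9, 51.4 and 27.3 FPKM in high CO2. Its highest value was low CO2 replicate 1 and its lowest high CO2 replicate 3, and the log2 fold change of -0.04 (adjusted p = 0.956 in edgeR) was -0.56 (adjusted p = 0.000608) without both. The lipid phosphatidylinositol 3,4,5-trisphosphate is named as substrate of the 5-phosphatases NO01G05820, NO23G00430 and NO26G00530. NO23G00430 was at 5.99, 7.47 and 8.13 FPKM in low CO2 and 4.01, 4.2 and 4.5 FPKM in high CO2, with no overlap (log2 fold change 0.69, 95% interval 0.22 to 1.16, adjusted p = 0.138 in edgeR). NO01G05820 averaged 10.1 ± 3.35 FPKM in low CO2 and 6.94 ± 2.14 FPKM in high CO2 (log2 fold change 0.77, adjusted p = 0.194), and NO26G00530 averaged 6.50 ± 0.850 and 7.18 ± 2.19 FPKM (log2 fold change -0.04, adjusted p = 0.918). NO23G00430 (adjusted p = 0.0475) and NO01G05820 (0.0315) passed as higher without low CO2 replicate 1. The type II inositol 1,4,5-trisphosphate 5-phosphatases NO04G00530 and NO09G03850 averaged 24.4 ± 4.04 and 4.88 ± 1.88 FPKM in low CO2, against 25.3 ± 5.04 and 3.58 ± 0.167 FPKM in high CO2 (adjusted p = 0.75 and 0.484).

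The 9 enzymes of soluble inositol and inositol phosphates were all tested and none passed, with log2 fold changes of -0.39 to 0.34. Both inositol-3-phosphate synthases, which make the inositol ring from glucose 6-phosphate, were close to level. NO01G01760 averaged 29.9 ± 2.26 FPKM in low CO2 and 27.3 ± 2.60 FPKM in high CO2, and NO01G05000 averaged 13.7 ± 1.76 and 11.1 ± 1.00 FPKM (SD, n = 3 each; adjusted p = 0.773 and 0.444 in edgeR). Inositol monophosphatases free inositol from its phosphate, and the KEGG name VTC4, which some of them carry in the tables, also covers a plant step to ascorbate. Putative inositol monophosphatase 3 (NO17G01050) was at 60.8, 60.1 and 52.4 FPKM in low CO2 and 63.2, 69.3 and 83.1 FPKM in high CO2 (log2 fold change -0.39, 95% interval -0.82 to 0.04, adjusted p = 0.3), and inositol monophosphatase 2 (NO28G01020) averaged 52.0 ± 3.80 and 53.3 ± 4.07 FPKM (adjusted p = 0.495). The kinases that build the higher inositol phosphates, a multikinase, a pentakisphosphate 2-kinase and a tetrakisphosphate 1-kinase, each stayed under 13 FPKM.

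Synthesis and transfer of phosphatidylinositol and its use in glycosylphosphatidylinositol (GPI) anchors, which tether proteins to membranes, took in 20 genes, of which 18 were tested and none passed. The gene described as the synthase of phosphatidylinositol (NO04G04580) was at 0 to 0.91 FPKM in low CO2 and 0.29 to 0.84 FPKM in high CO2 and was not tested. Transfer proteins of the SFH family, related to yeast Sec14, which move phosphatidylinositol and phosphatidylcholine between membranes, included the most abundant pair, SFH1 and SFH3. SFH3 (NO06G01600) was at 90.8, 99.0 and 97.3 FPKM in low CO2 and 69.7, 72.2 and 54.6 FPKM in high CO2, a log2 fold change of 0.52 (95% interval 0.19 to 0.84, adjusted p = 0.117 in edgeR). SFH1 (NO08G02340) was at 86.0, 89.4 and 93.3 FPKM in low CO2 and 75.1, 78.99 and 82.3 FPKM in high CO2, a log2 fold change of 0.12 (adjusted p = 0.632). For both, every low CO2 library was above every high CO2 library, and the same held for SFH4 (NO04G01900), at 12.1, 20.3 and 18.2 FPKM in low CO2 and 10.5, 11.4 and 6.25 FPKM in high CO2 (log2 fold change 0.77, adjusted p = 0.176). The KEGG name of the SFH4 gene in the tables, gatA, is that of an amidotransferase subunit, so its naming is uncertain. SFH2 (NO07G02560) was at 70.8, 76.5 and 90.5 FPKM in low CO2 and 62.8, 55.8 and 29.4 FPKM in high CO2, again with no overlap and with high CO2 replicate 3 the lowest (log2 fold change 0.62, 95% interval 0.04 to 1.20, adjusted p = 0.24 in edgeR). Without low CO2 replicate 1, SFH3 (adjusted p = 0.0487) and SFH4 (0.0435) passed as higher. SFH6 (NO09G00480) overlapped widely, at 61.99, 40.5 and 55.96 FPKM in low CO2 and 72.5, 71.5 and 30.3 FPKM in high CO2 (log2 fold change -0.18, adjusted p = 0.807, and -0.67 with adjusted p = 0.00254 without low CO2 replicate 1 and high CO2 replicate 3).

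The GPI anchor is started in the endoplasmic reticulum by a transferase of several subunits, and a de-N-acetylase carries out the next step. Subunit A (NO15G01400), the catalytic one, averaged 79.1 ± 3.62 FPKM in low CO2 and 64.5 ± 7.49 FPKM in high CO2, with no overlap in FPKM but overlap in CPM (log2 fold change 0.23, adjusted p = 0.387 in edgeR). The subunit described as GPI1 (NO27G00750) was at 7.21, 10.6 and 11.7 FPKM in low CO2 and 6.01, 5.80 and 6.24 FPKM in high CO2, also with no overlap (log2 fold change 0.63, 95% interval 0.16 to 1.09, adjusted p = 0.162, and 0.0277 without low CO2 replicate 1). The de-N-acetylase (NO10G01900) was nearly level, with 78.98 ± 4.13 and 75.7 ± 2.55 FPKM (log2 fold change 0.01, 95% interval -0.26 to 0.28).

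A pair of neighbouring locus numbers carried the description of subunit P of the N-acetylglucosaminyltransferase that starts the GPI anchor. NO02G04650, with a mean length of 677 bases, was at 75.5, 45.1 and 48.8 FPKM in low CO2 and 85.6, 106 and 112 FPKM in high CO2. Its log2 fold change of -0.86 (SE 0.27, 95% interval -1.50 to -0.22, adjusted p = 0.16 in edgeR) was the lowest of the 79, and became -1.21 (adjusted p = 0.00782) without low CO2 replicate 1. NO02G04640, with 2294 bases, averaged 60.3 ± 19.2 FPKM in low CO2 and 61.9 ± 5.95 FPKM in high CO2 (log2 fold change -0.02, adjusted p = 0.97). How reads were divided between the pair was not tested.

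Besides the transferase that rose, the sphingolipid enzymes held the inositol phosphoceramide mannosyltransferase NO03G02570, which adds mannose to the product of that transferase in yeast. It averaged 24.2 ± 2.40 FPKM in low CO2 and 27.5 ± 1.02 FPKM in high CO2 (SD, n = 3 each), with no overlap in FPKM and a log2 fold change of -0.25 (95% interval -0.60 to 0.10, adjusted p = 0.405 in edgeR). Of the 3 hippocampus abundant transcripts, NO02G04450 had the widest gap, at 47.1, 83.9 and 90.9 FPKM in low CO2 and 45.4, 38.8 and 35.7 FPKM in high CO2 (log2 fold change 0.81, adjusted p = 0.112 in edgeR, and 0.00372 without low CO2 replicate 1). NO07G04030 was at 37.5, 11.5 and 17.2 FPKM in low CO2 and 32.3, 39.8 and 26.9 FPKM in high CO2, another gene with low CO2 replicate 1 among the high CO2 libraries. Its log2 fold change was -0.61 (adjusted p = 0.502) with all libraries and -1.33 (adjusted p = 0.0116) without that one. Without these 3 genes the signalling list held 84 genes, with the same 3 calls and a median log2 fold change of 0.11 over 76 tested, against 0.12 over 79.

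**Figure D4:**
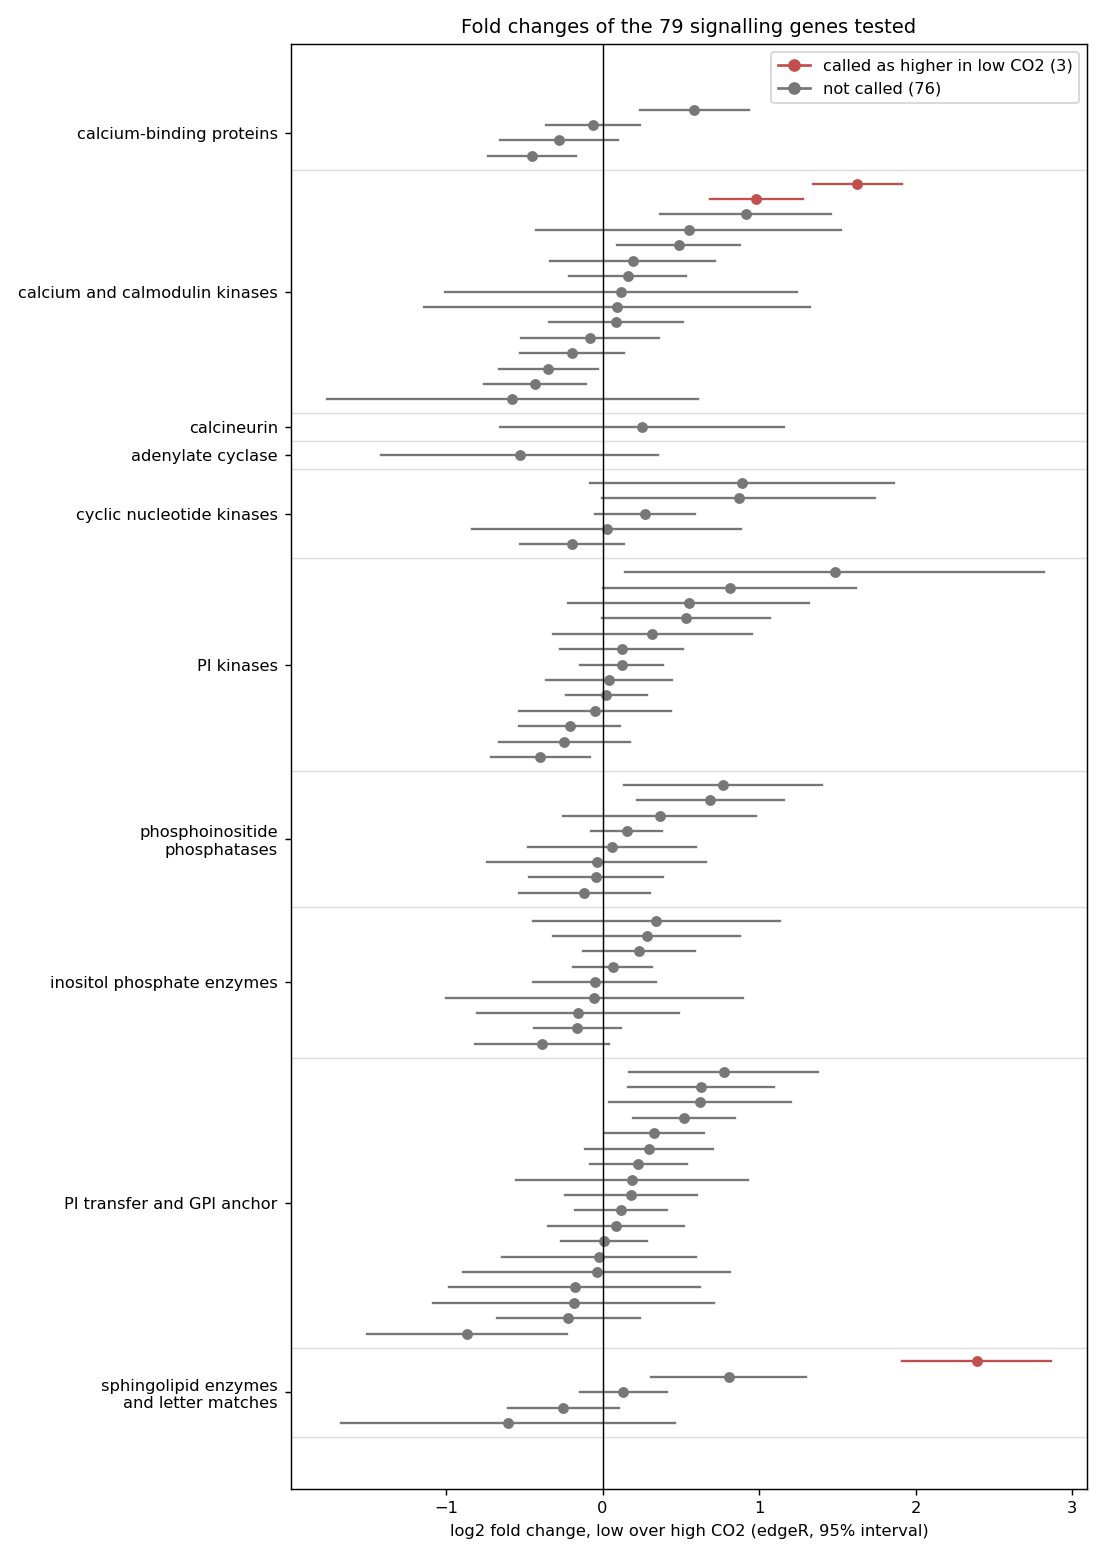
Log2 fold change (x axis, low over high CO2) of the 79 signalling genes tested, with 95% intervals from edgeR, grouped by role and ordered by size within each role. Red marks the 3 genes called as higher in low CO2, and grey the 76 not called, most of them near 0.

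Over the 79 genes tested, 49 had a positive and 30 a negative log2 fold change (62.0% positive, against 51.4% over all genes tested). The FPKM of the groups did not overlap at 27 of them, 22 with low CO2 higher and 5 with low CO2 lower. Over all genes tested 25.4% did not overlap, 13.6% with low CO2 higher and 11.8% with low CO2 lower. These counts depend on the measure. The log2 ratio of mean FPKM was a median of 0.07 above the count-based log2 fold change, here and over all genes alike. In CPM, SFH1 (NO08G02340), NO17G01050, NO15G01400 and NO10G01760 overlapped, as did the kinase NO22G01280. Every low CO2 library was under every high CO2 library for NO28G01020 and for the kinases NO15G02200, NO11G01760 and NO13G01790. The reverse held for NO13G03090 and NO01G05000, which overlapped in FPKM. The 95% interval lay within a 2-fold change either way for 53 of the 79, and 23 of the 76 genes not called had an interval that reached a 2-fold change or more. The signalling genes were longer than the rest, with a median of 2294 bases against 1728 over all genes, and of similar level, with a median of 21.0 FPKM against 23.8. With a smooth trend on gene length removed from each library, the median log2 fold change was 0.04, and the same 3 genes were called, beside 2.35% of all genes.

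DESeq2's Wald test called 7 of the 79, all higher in low CO2, where 6.03% of all genes were called and 3.53% as higher. They were the 3 genes above, calcium-dependent protein kinase 29, the calcium-binding protein NO02G00020 (adjusted p = 0.0443), SFH3 (0.0403) and the hippocampus abundant transcript NO02G04450 (0.0218).

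Low CO2 replicate 1 differed more than 2-fold in CPM from the mean of low CO2 replicates 2 and 3 at 7 of the 79 genes (8.86%, against 11.7% of all genes tested), and high CO2 replicate 3 from the mean of the other high CO2 libraries at 4 (5.06%, against 7.42%). Low CO2 replicates 2 and 3 differed that much at 0, as did high CO2 replicates 1 and 2 (0.952% and 1.89% of all genes). What set these libraries apart was not tested. At 15 genes low CO2 replicate 1 lay within the range of the high CO2 libraries while both other low CO2 libraries lay outside it on the same side, which is 19.0% of them, against 21.0% of all genes tested. Without low CO2 replicate 1, 12 of the 79 rose and 6 fell, where 17.2% of all genes tested were called, 7.02% as higher and 10.2% as lower. Without it and high CO2 replicate 3, 22 rose and 12 fell, where 36.6% of all genes were called, 17.2% as higher and 19.4% as lower, and the 3 genes named first were among both sets. Without low CO2 replicate 2 the 3 calls stayed, where 0.516% of all genes were called. Without low CO2 replicate 3 or high CO2 replicates 1, 2 or 3 the type II kinase was lost and the other two stayed, where 0.538%, 0.376%, 0.193% and 0.727% of all genes were called. Of the 34 called without low CO2 replicate 1 and high CO2 replicate 3, 8 were calcium-dependent or calmodulin-dependent kinases (5 higher, 3 lower, of 15 tested). Phosphatidylinositol kinases gave 6 (4 higher, 2 lower, of 13 tested) and phosphoinositide phosphatases 5 (4 higher, 1 lower, of 8 tested). Genes of phosphatidylinositol transfer and GPI anchors gave 9 (6 higher, 3 lower, of 18 tested), and soluble inositol phosphate enzymes 1 (lower, of 9 tested). None of the 34 was a cyclic nucleotide gene, of which only 5 kinases and 1 adenylate cyclase were tested.

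**Figure D5:**
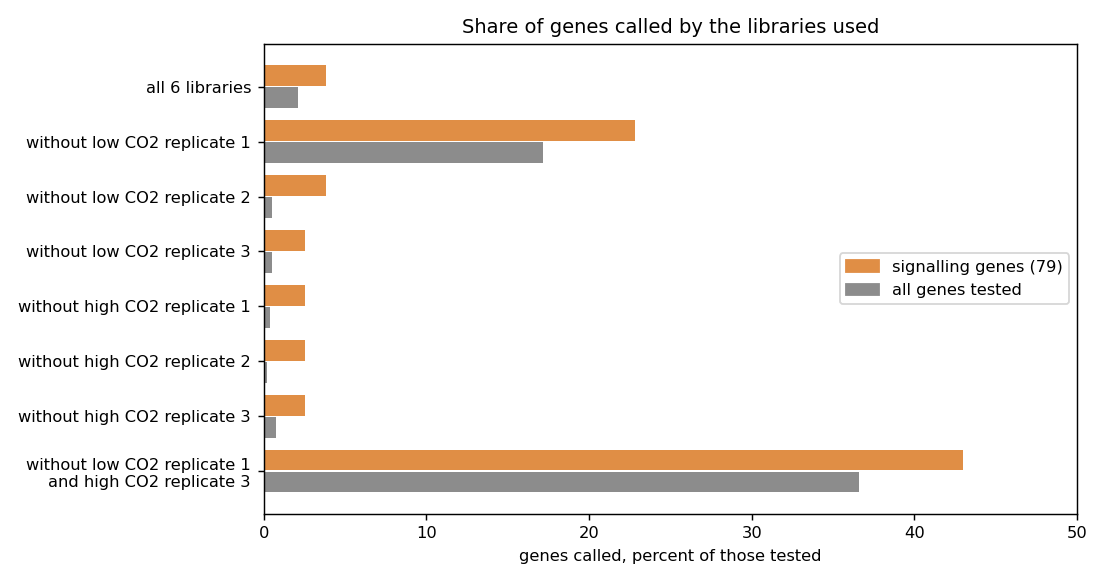
Percent of the 79 signalling genes and of all genes tested that were called (x axis, from 0), with all 6 libraries and with libraries left out. Both shares stay under 4% except without low CO2 replicate 1 (22.8% of the signalling genes and 17.2% of all genes) and without that library and high CO2 replicate 3 (43.0% and 36.6%).

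Genes of the same pathways that the words above did not take in were examined as a further list of 47 genes, covering calcium pumps, channels and exchangers, centrins, calreticulin, G protein subunits, inositol oxygenases and phosphodiesterases of any kind. By their wording, several of the phosphodiesterases act on DNA, RNA or phospholipids and not on cyclic nucleotides. Of the 44 tested, 2 rose, 0 fell and 42 did not pass, where 2.12% of all genes were called. Both that rose are calcium-transporting ATPases, pumps that move calcium out of the cytosol. All other genes with that description were tested and not called. NO20G02510, described as calcium-transporting ATPase 3, was at 112, 103 and 95.2 FPKM in low CO2 and 61.6, 55.0 and 52.6 FPKM in high CO2 and rose 1.88-fold (log2 fold change 0.91, SE 0.13, adjusted p = 0.0182 in edgeR). NO16G02820, described as a calcium-transporting ATPase, was at 33.4, 31.4 and 23.1 FPKM in low CO2 and 12.9, 13.9 and 13.1 FPKM in high CO2 and rose 2.11-fold (log2 fold change 1.08, SE 0.19, adjusted p = 0.0388). For both pumps the groups did not overlap, and the authors' deposited table lists NO16G02820 with a log2 fold change of 1.08 (adjusted p = 0.000188). It also lists NO04G01100, a glycerophosphodiester phosphodiesterase described as GDPD6, with 1.62 (adjusted p = 0.0207). In edgeR here that gene was not called (log2 fold change 1.597, 95% interval 0.46 to 2.73, adjusted p = 0.15), at 23.1, 30.9 and 44.4 FPKM in low CO2 and 15.3, 12.4 and 3.21 FPKM in high CO2. NO20G02510 was lost on leaving out any single library but low CO2 replicate 1 (adjusted p up to 0.127), and NO16G02820 on leaving out low CO2 replicate 2 or any high CO2 library (up to 0.184) or on removing the length trend (0.0753). The other genes described as calcium-transporting ATPase 3 were NO11G00410, NO20G01430 and NO20G01420. They averaged 168, 152 and 45.0 FPKM in low CO2 and 182, 163 and 19.9 FPKM in high CO2. Their log2 fold changes were 0.01, -0.18 and 1.005 (adjusted p = 0.984, 0.568 and 0.228 in edgeR).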

How the data were processed

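The submitters' processing notes name Trim Galore, and also STAR, Picard, featureCounts, StringTie and edgeR, without roles or versions; the build and annotation are not given in the sources used here. Per the file headers, every library has a gene table with expected counts, TPM and FPKM. The expected counts that the authors deposited are raw, and 17.5% to 19.8% were not whole within 0.004. The authors' TPM add up to 1000000 in each library and were not tested, and the FPKM deposited by the authors give the levels. The authors' deposited table gave log2 fold changes and p-values for 217 genes, low over high CO2 by the sign of 216.

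Here counts were rounded, filtered by filterByExpr (9244 of 10633 genes kept) and scaled by TMM. Low was set against high CO2 in edgeR 4.0.16 (R 4.3.3, robust quasi-likelihood fit, no replicate block). The fit was run on simulated counts in which no library stood apart from its group. That check therefore does not cover the libraries that stood apart here. SE is the log2 fold change over the root of F. Replicates were separate reactors. The biological coefficient of variation was 23.1%. Alternatives used limma 3.58.1 on log2(FPKM + 1) or log2(FPKM + 0.1) of genes averaging at least 1 FPKM, DESeq2 1.42.0, other scalings and filters, a replicate block, a length trend and left-out libraries. Intervals cover spread between libraries. Signalling genes, role groups, lists and alternatives were chosen with earlier results of these data known. Named genes were all called ones, the 2 most abundant per role, and up to 4 per direction with the largest changes among uncalled genes of at least 5 FPKM with no overlap; others were chosen after their values were seen. Of 160 genes in the reference table, 0 matched an identifier, so names come from the deposited tables.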

Additional observations from a re-analysis of the deposited data

How the results depend on the processing

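The count of all genes called, 196, moved to 21 with the replicate block, 568 in DESeq2, 3402 without low CO2 replicate 1 and high CO2 replicate 3, and 18 to 1610 on leaving out each library. The 3 calls among the signalling genes became 7 in DESeq2 (all higher in low CO2), 34 without both libraries, and 2 to 18 on leaving out each library; 2 with at least a 2-fold change. The 2 calls among the further pathway genes became 0 with the block, 5 in DESeq2, 1 with the length trend removed, 21 without both libraries, and 0 to 8 on leaving out each library. The median log2 fold change of the signalling genes stayed between 0.04 and 0.15. With the replicate block, 2 of the 3 calls were kept, and the type II kinase NO15G00050 was not called (adjusted p = 0.172), nor were the calcium pumps NO20G02510 (0.154) and NO16G02820 (0.23). Deviations of same-numbered libraries from the group means had r of -0.36, 0.08 and -0.43 across genes. These values cannot decide whether the numbers pair the libraries. With 3 libraries per group the deviations sum to 0 within each group, and low CO2 replicate 1 and high CO2 replicate 3 stood apart.

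Of the 79 signalling genes, 24 changed sign in at least 1 alternative, and 0 of those 24 were called in edgeR with all libraries. Among those named by rule, the sign turned for calcineurin NO29G00520 (log2 fold change -0.31 to 0.54 on leaving out libraries, lowest without low CO2 replicate 1, and -0.28 without both libraries), for calmodulin NO27G00950 (-0.16 to 0.02 on leaving out libraries, 0.00 in both limma fits) and for the 5-phosphatase NO05G00080 (0.16 without low CO2 replicate 2, 0.02 without low CO2 replicate 3, 0.07 and 0.11 without high CO2 replicates 1 and 2, 0.03 in both limma fits, and -0.56 without both libraries). The cause was not tested. The 8 signalling genes not tested had too few counts for the filter. Of these, 7 averaged under 1 FPKM, and the short model NO08G00770 averaged 3.30 FPKM.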
